A study of Rattus norvegicus with 18 samples.

Results

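Rat kidney cells held for 72 h in the fungicide chlorothalonil were compared with vehicle cells held for 24 h, to ask which of their transcripts lay where vehicle cells had been at 24 h and which lay elsewhere. The comparison uses the 3 arrays of cells given chlorothalonil at 1.1 µM for 72 h and the 3 arrays of cells given DMSO alone for 24 h, chosen by their titles, which is 6 of the 18 arrays of the series. The cells are NRK-52E, an established epithelial line from the proximal tubule of an Osborne-Mendel rat, grown to confluence in DMEM with 10% fetal calf serum. Both groups carried the same DMSO solvent, and per the labels each array is a biological replicate of its group. Vehicle cells at 72 h and at 6 h, 3 arrays each, show in which direction vehicle culture itself moved. Treatment and time in culture both differ between the 2 groups, so their parts in a difference cannot be told apart.

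Chlorothalonil is an organochlorine compound that reacts with thiols, so that it uses up glutathione and modifies cysteines of proteins, glyceraldehyde-3-phosphate dehydrogenase among them. A confluent epithelial culture goes on changing after it is given fresh medium: growth genes that serum switches on decline, while genes for matrix and for resting metabolism come up. A treated culture may therefore lie at an earlier point of that course, at the same point, or off it, and transcripts of different pathways need not agree.

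All levels are log2 intensities of Affymetrix probe sets, and a difference is the mean of treated cells at 72 h minus the mean of vehicle cells at 24 h, so that a positive one is higher in the treated cells. Over 9149 genes, the lowest correlation between arrays of one group was 0.992. Spiked poly-A control transcripts, which are added to the RNA before labelling, were brighter in the treated arrays at 10.7 ± 0.21 (SD, n = 3) than in the vehicle 24 h arrays at 9.79 ± 0.71 (SD, n = 3). The vehicle 24 h array numbered 1 was the dimmest, at 8.97. With 3 arrays against 3, the exact two-sided permutation p cannot go below the 0.10 that was found. Over all times of the series, every chlorothalonil array was brighter in these controls (10.46 to 11.19) than every DMSO array (8.97 to 10.28). The order therefore did not rest on the dimmest vehicle array alone. Why the controls differed with treatment was not tested. Scaling the arrays to these controls takes 0.89 off every difference of treated cells at 72 h from vehicle cells at 24 h. A gene reported as higher by less than that has the opposite sign under it, and no gene would then lie at the vehicle 24 h level by the interval used here. Differences from vehicle cells at 72 h, where the controls were at 9.97, 9.92 and 10.14, also become lower, but by another amount. Medians against vehicle cells at 72 h are given on the deposited scale only, and small positive ones may change sign. Whether the controls or the bulk of the transcripts give the truer scale was not tested. Of 8 defining proximal tubule genes on the array, 1 (Ggt1) exceeded log2 4, and Lrp2, Cubn, Aqp1, Slc34a1, Slc5a2, Anpep and Hnf4a did not in either group. Krt8, Cdh2 and Tjp1 of 5 epithelial genes were above it, and Krt18 and Cdh1 were not. In RNA from a whole culture, fewer cells of a kind and less RNA per cell cannot be told apart.

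Of the 9149 genes, 5897 (64.5%) differed between treated cells at 72 h and vehicle cells at 24 h by limma's moderated test with a Benjamini-Hochberg adjusted p under 0.05. Of these, 3997 (43.7% of all genes) were higher and 1900 (20.8%) lower in the treated cells. The higher calls were 67.8% of the calls on the deposited scale, 63.3% after quantile normalization, 50.7% with each array centred on its median and 4.41% after poly-A scaling. A difference of at least 2-fold was called for 733 higher genes (8.01%) and 413 lower genes (4.51%). Likeness was read from the 95% interval of the difference: a gene was taken to lie at the vehicle 24 h level where that whole interval lay within 1.5-fold either way, since a p that misses the threshold does not show likeness. By that measure 4367 genes (47.7%) lay at the vehicle 24 h level, of which 65 were at or below log2 4 on all arrays of both groups. A small but well measured difference can meet both rules, and 1748 genes did. Another 633 genes met neither.

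The genes that moved with time in vehicle culture were taken from vehicle cells at 72 h against 6 h, which shares no array with the comparison made here. Between those times 1504 genes rose at least 2-fold (16.4%) and 1344 fell at least 2-fold (14.7%). Of the 1504 that rose, 691 were higher in treated cells at 72 h than in vehicle cells at 24 h, 265 were lower, and 531 (35.3%) lay within 1.5-fold. Of the 1344 that fell, 613 were higher, 348 were lower, and 415 (30.9%) lay within 1.5-fold. The shares within 1.5-fold were thus below the 47.7% of all genes for both directions. The median difference from vehicle cells at 24 h was 0.26 for the genes that rose and 0.19 for those that fell, beside 0.16 for all 9149 genes. Against vehicle cells at 72 h the same genes had medians of −0.40 and 0.61, beside 0.07 for all genes, and vehicle cells moved by 0.62 and −0.42 between 24 h and 72 h, beside 0.08. Both of these comparisons reuse the vehicle 72 h arrays by which the genes were chosen. The signs of their medians are therefore partly fixed by that choice and are no test of a delay. Poly-A scaling shifts these medians with all other genes, and turns the counts to 81 higher and 648 lower among the genes that rose and to 53 and 694 among those that fell.

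Between 24 h and 72 h alone, 549 genes rose (6.00%) and 499 fell (5.45%) at least 2-fold in vehicle cells. Among the 549, treated cells at 72 h lay within 1.5-fold of the 24 h level for 78 genes, between both levels with both differences called for 177, and within 1.5-fold of the 72 h level for 86 (46.1% of all genes lay within 1.5-fold of vehicle cells at 72 h). Another 25 lay beyond the 72 h level, 25 lay below the 24 h level, and 158 could not be placed by these rules. Among the 499 that fell, 77 lay within 1.5-fold of the 24 h level, 141 between, 80 within 1.5-fold of the 72 h level, 11 beyond it, and 53 above the 24 h level, while 137 could not be placed. These comparisons share arrays with one another, so the counts describe where the treated cells lay and are no test of a delay. No position held most of the genes of either direction under these rules, which left 158 and 137 genes unplaced. By the calls alone, 377 of the 549 were above the 24 h level and 370 were below the 72 h level (43.7% and 27.0% of all genes). Of the 499, 341 were below the 24 h level and 332 above the 72 h level (20.8% and 37.2% of all genes). These calls too reuse the arrays by which the genes were chosen.

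**Figure D1:**
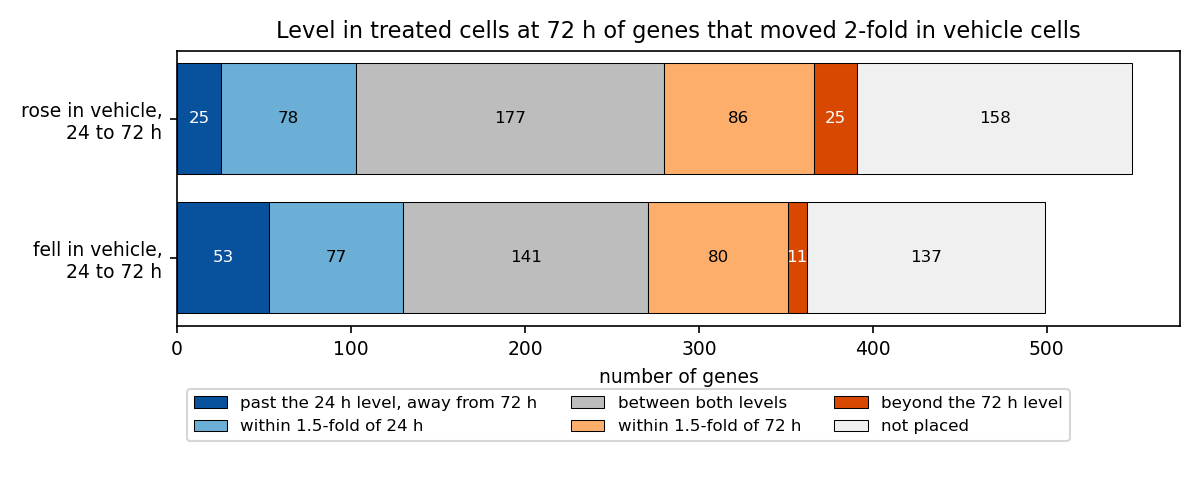
Horizontal bars give the number of genes, for the 549 genes that rose and the 499 that fell at least 2-fold in vehicle cells from 24 h to 72 h, divided by where treated cells at 72 h lay. The grey segments of 177 and 141 genes, between both vehicle levels, are the largest that could be placed, and the segments at the 24 h level (78 and 77) and at the 72 h level (86 and 80) are of like size.

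Among the 78 genes that came up late in vehicle culture and lay at their 24 h level in treated cells, the 8 with the greatest vehicle change were Hlf, Col12a1, Klhl29, Tet1, Pm20d2, Fxyd3, Ltbp4 and Sned1. Col12a1, which encodes a fibril-associated collagen chain, was at 8.28, 8.09 and 7.92 in the vehicle cells at 24 h and at 7.91, 8.20 and 8.28 in the treated cells at 72 h. The 2 groups overlapped, whereas vehicle cells at 72 h were at 11.33, 11.48 and 11.47. The difference from 24 h was 0.03 (95% interval −0.27 to 0.33, limma adjusted p = 0.870), and the treated cells were 9.81-fold below vehicle cells of their own time. A second Col12a1 probe set gave a difference of −0.73 from 24 h, so the likeness holds for the brighter set only.

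Ltbp4, a matrix protein that binds latent TGF-beta and aids elastic fibre assembly, was at 10.02, 9.92 and 10.01 in vehicle cells at 24 h, 9.96, 10.39 and 10.31 in treated cells, and 12.03, 12.15 and 12.18 in vehicle cells at 72 h. Its difference from 24 h was 0.23 (95% interval 0.02 to 0.45, limma adjusted p = 0.0516). Sned1, another matrix protein, differed by −0.11 (−0.51 to 0.29) after a 3.94-fold vehicle rise. In each of these genes the treated arrays lay among or beside the 24 h arrays and far below the 72 h ones.

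Fxyd3, a regulator of the sodium pump, was at 8.56, 8.55 and 8.52 in vehicle cells at 24 h and 8.45, 8.79 and 8.78 in treated cells, against 10.50, 10.67 and 10.98 in vehicle cells at 72 h. Pm20d2 differed from its 24 h level by 0.08 (−0.14 to 0.29) after a 4.82-fold vehicle rise. Tet1, which oxidises 5-methylcytosine in DNA, was at 3.59, 3.71 and 4.23 in vehicle cells at 24 h, about the background limit, and at 3.67, 3.61 and 3.50 in treated cells, below it. Hlf, a PAR bZIP transcription factor of clock-controlled genes, and Klhl29 were at or below log2 4 in both groups, so no fold is given, while vehicle cells at 72 h were at least 5.87-fold and 3.30-fold above the log2 4 limit. Of the 78 genes, 8 were at background in both groups in this way.

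Of 12 collagen genes tested, 6 were higher in treated cells at 72 h than in vehicle cells at 24 h, 2 (Col4a5 and Col16a1) were lower, and 6 lay within 1.5-fold (43.7%, 20.8% and 47.7% of all genes), with a median difference of 0.34 on the deposited scale and −0.56 after poly-A scaling. In vehicle cells 11 of the 12 rose from 24 h to 72 h (36.3% of all genes did), with a median of 1.23. Against vehicle cells at 72 h, 10 of the 12 were lower (27.0% of all genes), with a median of −1.12. Col3a1, the chain of type III collagen, was at 10.49, 10.47 and 10.64 at 24 h, 10.92, 11.38 and 11.34 in treated cells, and 14.37, 14.46 and 14.53 in vehicle cells at 72 h. The treated arrays all lay above the 24 h arrays, by 0.68 ± 0.13 (SE, limma adjusted p = 0.000267), and 9.46-fold below the 72 h mean. Col1a2, a chain of type I collagen, lay further above 24 h, at 7.89, 8.40 and 8.40 against 5.97, 5.41 and 4.61, a difference of 2.90 ± 0.39 (limma adjusted p = 1.32e-05). Its partner chain Col1a1 was 1.69-fold higher than at 24 h and 2.43-fold below vehicle cells at 72 h. Col5a2, a chain of type V collagen, lay at the 24 h level on its brighter probe set, with an interval of −0.11 to 0.11, and differed by −0.33 on the other.

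Loxl1, an enzyme that crosslinks elastin, was at 2.35, 2.07 and 2.71 in vehicle cells at 24 h, which is background, at 8.68, 8.69 and 8.54 in treated cells and at a mean of 8.02 ± 0.02 (SD, n = 3) in vehicle cells at 72 h. The treated cells were at least 24.9-fold above the 24 h limit (limma adjusted p = 1.93e-12) and 1.54-fold above vehicle cells of their own time. Bgn, the proteoglycan biglycan, was 2.04-fold above 24 h, and Timp1, an inhibitor of matrix proteases, 1.69-fold above. Plod1, a lysyl hydroxylase of collagen, was 1.84-fold below 24 h although it was flat in vehicle cells (difference −0.04, −0.16 to 0.07).

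Among the 77 genes that fell late in vehicle culture and lay at their vehicle 24 h level in treated cells, the 8 with the greatest vehicle change were Zdhhc2, Hspb8, Ptgs2, Cdkn3, Asns, Slc7a5, Pimreg and Filip1l. Cdkn3 is a phosphatase that acts on cyclin-dependent kinases and is made in dividing cells, and Cks2 is a small subunit of the same kinases. Their promoters, from 250 bases before to 50 after the start of transcription in RefSeq (build GRCr8), are shown because both genes belong to a group read together in mitosis, with CCAAT boxes and the cell cycle homology region (CHR, TTTGAA) on either strand in capitals. The Cdkn3 promoter is at chr15:22502136-22502435 on the plus strand and the Cks2 promoter at chr17:13727470-13727769 on the minus strand.
Cdkn3: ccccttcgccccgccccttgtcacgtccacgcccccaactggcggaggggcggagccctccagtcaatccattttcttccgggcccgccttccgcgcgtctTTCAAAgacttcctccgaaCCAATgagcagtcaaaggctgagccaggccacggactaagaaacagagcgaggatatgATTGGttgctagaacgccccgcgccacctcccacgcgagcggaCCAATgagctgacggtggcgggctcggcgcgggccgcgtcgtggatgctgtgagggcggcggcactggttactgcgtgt
Cks2: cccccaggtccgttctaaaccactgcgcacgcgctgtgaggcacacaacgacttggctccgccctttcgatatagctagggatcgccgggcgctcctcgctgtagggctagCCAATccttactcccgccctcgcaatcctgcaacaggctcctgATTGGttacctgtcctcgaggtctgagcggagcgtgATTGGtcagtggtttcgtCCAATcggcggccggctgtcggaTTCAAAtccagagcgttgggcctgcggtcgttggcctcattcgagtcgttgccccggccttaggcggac
The Cdkn3 window holds 3 CCAAT matches and 1 CHR match, and the Cks2 window holds 4 and 1. Of 28 mitosis genes with a promoter in the table, 20 hold a CHR match, against 11.2% of 7746 tested genes and 18.1% of all 27457 promoters. CCAAT matches are in 22 of the 28, against 38.9% and 37.7%. They are also in 13 of 16 cholesterol genes with a promoter, so they are not particular to the mitosis list. A match is a description of the letters and not a site of binding.

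Cdkn3 was at 11.69, 11.72 and 11.69 in vehicle cells at 24 h and at 11.82, 11.98 and 11.87 in treated cells, while vehicle cells at 72 h were at 9.51, 9.56 and 9.61. The difference from 24 h was 0.19 (95% interval 0.04 to 0.35, limma adjusted p = 0.0315), small but with no overlap of the arrays. Pimreg, a regulator of mitosis, differed from its 24 h level by −0.05 (−0.45 to 0.36) after a 3.74-fold vehicle fall. Cks2 had not fallen in vehicle cells (difference 0.02, −0.14 to 0.18) and was at 13.51, 13.66 and 13.70 in treated cells against 12.6 on each vehicle 24 h array.

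Ptgs2, the inducible cyclooxygenase, was at 9.15, 9.58 and 9.77 at 24 h and 9.78, 9.49 and 9.52 in treated cells, with overlap, against 7.18, 7.21 and 7.25 in vehicle cells at 72 h. Its difference from 24 h was 0.10 (−0.27 to 0.47). Zdhhc2, a palmitoyltransferase, differed by −0.10 (−0.49 to 0.29) after a 6.42-fold vehicle fall. Filip1l differed by 0.02 (−0.22 to 0.25) after a 3.61-fold fall. Each of these was between 3.66-fold and 6.00-fold above vehicle cells at 72 h.

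Hspb8, a small heat shock protein that works with BAG3 in selective autophagy, was at 10.62, 10.90 and 10.71 at 24 h and 10.92, 11.03 and 10.96 in treated cells, against 8.39, 8.18 and 8.30 in vehicle cells at 72 h. The difference from 24 h was 0.23 (0.05 to 0.41), and a second probe set gave −0.17. Its promoter, at chr12:45837058-45837357 on the plus strand (GRCr8), is shown because the gene is on the heat shock list, with the heat shock element GAANNTTC in capitals.
Hspb8: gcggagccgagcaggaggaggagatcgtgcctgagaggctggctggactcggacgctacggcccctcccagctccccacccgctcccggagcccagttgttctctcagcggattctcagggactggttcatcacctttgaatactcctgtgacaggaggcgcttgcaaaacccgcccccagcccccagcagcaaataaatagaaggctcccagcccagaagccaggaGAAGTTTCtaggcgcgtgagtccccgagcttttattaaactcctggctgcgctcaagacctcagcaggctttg
This window holds 1 match, and 10 of the 22 heat shock genes with a promoter hold one, against 5.54% of tested genes and 8.34% of all promoters.

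**Figure D2:**
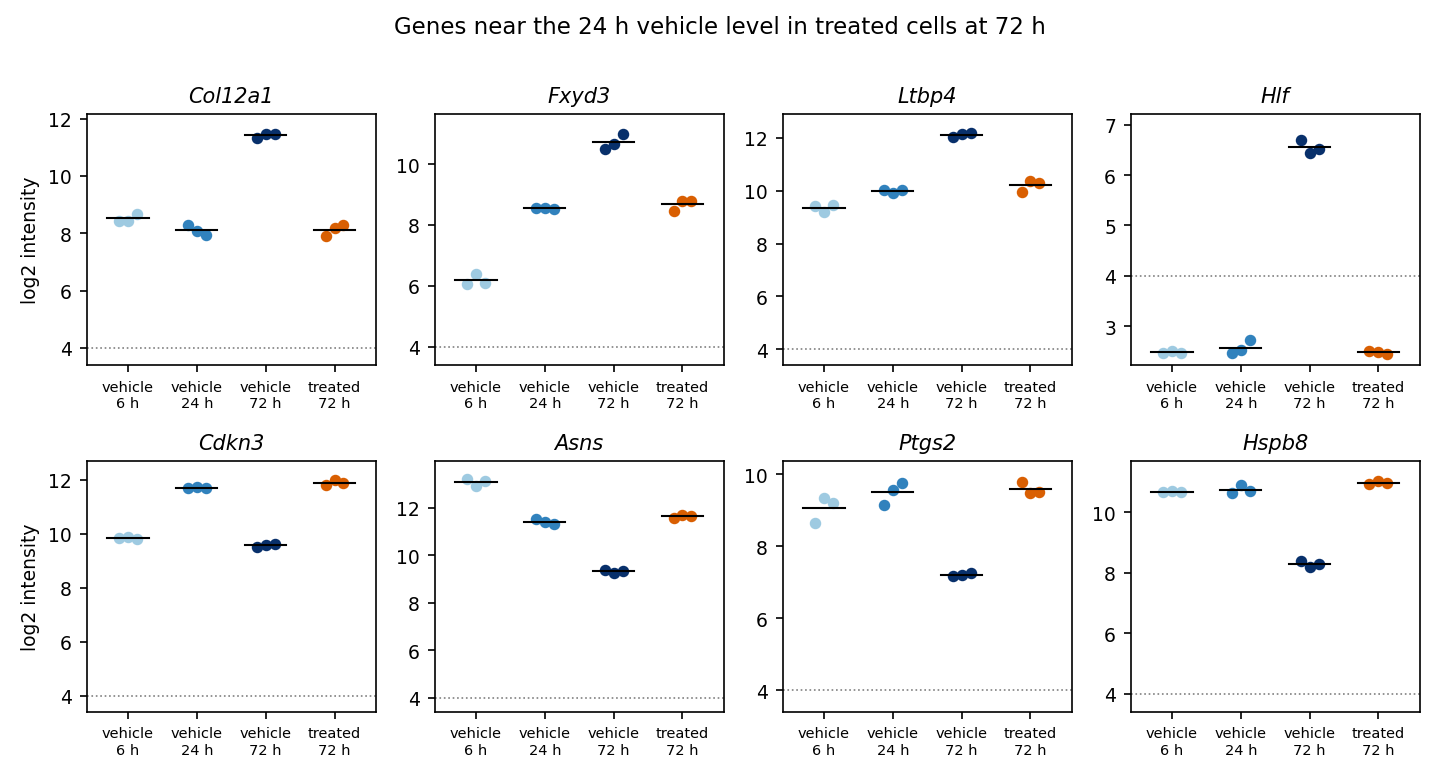
Each panel shows one gene, with log2 intensity on the vertical axis, 1 point per array, a bar at the mean of the 3 arrays of a group and a dotted line at log2 4. In the treated 72 h arrays all 8 genes lie near the vehicle 24 h arrays and apart from the vehicle 72 h arrays, above them for the 4 genes of the lower row and below them for the 4 of the upper row.

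The amino acid genes driven by the transcription factor ATF4 fell late in vehicle cells, and several of them stood near their 24 h level in treated cells. Asns, which makes asparagine, was at 11.51, 11.39 and 11.29 in vehicle cells at 24 h, 11.58, 11.69 and 11.65 in treated cells and 9.37, 9.26 and 9.35 in vehicle cells at 72 h. Its difference from 24 h was 0.24 (0.08 to 0.41, limma adjusted p = 0.0136). Slc7a5, the large neutral amino acid transporter, differed by −0.19 (−0.41 to 0.02) and was 3.64-fold above vehicle cells at 72 h. Trib3, a pseudokinase that ATF4 induces, was at 8.58, 9.01 and 8.60 at 24 h and 9.15, 8.97 and 8.84 in treated cells, while vehicle cells at 72 h had dropped to 4.94, 4.44 and 5.27. It was 17.2-fold above vehicle cells of its own time and 0.26 from its 24 h level, with an interval of −0.11 to 0.63 that is too wide to place it there. Chac1, an enzyme that breaks down glutathione, lay 1.34-fold below its 24 h level and 4.79-fold above vehicle cells at 72 h.

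The Chac1 promoter, at chr3:126795881-126796180 on the plus strand (GRCr8), is shown with its match to the amino acid response element, TGATGNAAN on either strand, and its CCAAT boxes in capitals.
Chac1: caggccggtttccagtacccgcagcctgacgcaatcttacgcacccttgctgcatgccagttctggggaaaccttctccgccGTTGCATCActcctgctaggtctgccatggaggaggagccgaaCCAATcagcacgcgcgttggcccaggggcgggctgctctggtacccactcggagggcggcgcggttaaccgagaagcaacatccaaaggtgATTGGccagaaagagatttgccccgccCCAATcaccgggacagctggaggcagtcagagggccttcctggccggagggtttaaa
It holds 1 element and 3 CCAAT matches. Of 31 ATF4 list genes with a promoter, 10 hold the element, against 1.92% of tested genes and 3.80% of all promoters. This motif was chosen for the search after the values had been seen. The sterol regulatory element (TCACNCCAC), added in the same way, matched 0 of 16 cholesterol genes with a promoter, against 1.11% of tested genes and 1.13% of all promoters.

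Over the ATF4 list, however, the members were divided. Of 33 genes tested, 12 were higher in treated cells at 72 h than in vehicle cells at 24 h, 13 were lower and 8 did not pass the test. Within 1.5-fold lay 16 of the 33. Of all genes 43.7% were higher, 20.8% lower and 47.7% within 1.5-fold, so likeness to 24 h was about as common in the list as elsewhere. The median difference was −0.09, and −0.99 after poly-A scaling. From 24 h to 72 h 27 of the 33 fell in vehicle cells (24.3% of all genes did), with a median of −1.05. Against vehicle cells at 72 h, 29 were higher in treated cells (37.2% of all genes), with a median of 0.79. Psat1 and Psph, enzymes of serine synthesis, were 1.92-fold and 2.08-fold below 24 h. Ppp1r15a, the phosphatase subunit that reverses eIF2alpha phosphorylation, went the other way, at 9.60, 9.90 and 9.96 against 6.58, 6.42 and 5.79 at 24 h. It was 11.8-fold higher than in vehicle cells at 24 h (adjusted p = 6.24e-09) and 9.67-fold higher than at 72 h. Slc3a2, the heavy chain that pairs with Slc7a5, was 1.94-fold higher than at 24 h. Sesn2 and Cebpb lay within 1.5-fold, at −0.04 and 0.01. Mthfd2, a mitochondrial folate enzyme, was 1.47-fold above 24 h after a 5.33-fold vehicle fall.

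Most proteasome subunits lay at the 24 h level. Of 33 genes 29 lay within 1.5-fold (47.7% of all genes), with a median difference of −0.01 on the deposited scale and −0.90 after poly-A scaling. Of the 33, 6 were called higher and 5 lower, beside 43.7% and 20.8% of all genes. In vehicle cells 27 of the 33 fell from 24 h to 72 h (24.3% of all genes), with a median of −0.40, and 28 were higher in treated than in vehicle cells at 72 h (37.2% of all genes), with a median of 0.39. Psmd3, of the regulatory particle, was at 10.21, 10.27 and 10.20 at 24 h, 10.06, 10.33 and 10.28 in treated cells, and 9.76, 9.81 and 9.91 in vehicle cells at 72 h. Psmb3, of the core particle, differed by −0.01 (−0.18 to 0.16). Psmd8 stood above the rest, 1.86-fold over 24 h, while the ATPases Psmc3 and Psmc2 were 1.43-fold and 1.33-fold below it.

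Lipid synthesis genes lay below the vehicle 24 h level by a wide margin. All 20 genes of cholesterol synthesis and uptake that were tested were lower in treated cells at 72 h than in vehicle cells at 24 h (20.8% of all genes were). Their median difference was −2.55 on the deposited scale and −3.45 after poly-A scaling. In vehicle cells all 20 fell between 24 h and 72 h as well (24.3% of all genes), with a median of −3.09. Against vehicle cells at 72 h, 16 of the 20 were higher in treated cells and 1 was lower (37.2% and 27.0% of all genes), with a median of 0.56. Mvd, the mevalonate decarboxylase, was at 11.46, 11.62 and 11.43 in vehicle cells at 24 h, 7.20, 7.89 and 7.81 in treated cells, and 6.55, 6.71 and 6.36 in vehicle cells at 72 h. It was 14.6-fold below 24 h (limma adjusted p = 2.68e-11) and 2.14-fold above 72 h. Sqle, the squalene epoxidase, was at 12.82, 13.02 and 12.86 at 24 h and 10.04, 10.37 and 10.26 in treated cells, 6.38-fold lower. The groups were far apart for every one of these genes named here.

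Tm7sf2, a sterol reductase, was at 11.46, 11.60 and 11.41 in vehicle cells at 24 h and at 6.48, 7.01 and 6.39 in treated cells, 29.1-fold lower. It had been at background in vehicle cells at 6 h, where its 3 arrays were between 2.96 and 3.80, so that 24 h was the highest of the 3 vehicle times. Mvk, Cyp51, Acat2 and Ebp of the same pathway were 11.7-fold, 7.61-fold, 6.59-fold and 6.62-fold below 24 h. The probe sets of Cyp51, and of Jun and Lig1 below, are of a kind that can match transcripts of more than 1 gene. Lss, the lanosterol synthase, was 8.41-fold below 24 h and lay at the 72 h vehicle level, at −0.06 (−0.41 to 0.30) from it. Its second probe set was lower than at 24 h by 5.20 on the log2 scale.

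Fatty acid synthesis genes were likewise low, with 14 of 15 lower than at 24 h (20.8% of all genes) and Srebf1, at −0.26, not passing the test. The list's median was −1.66 against 24 h, −1.77 in vehicle cells from 24 h to 72 h, and −0.02 against vehicle cells at 72 h, where 13 of the 15 lay within 1.5-fold (46.1% of all genes). Fasn, the fatty acid synthase, was at a mean of 12.04 ± 0.054 (SD, n = 3) at 24 h, 9.78, 9.57 and 9.53 in treated cells and 9.80, 9.70 and 9.84 in vehicle cells at 72 h. Scd, the delta-9 desaturase, was at 6.51, 6.73 and 6.62 at 24 h and at background in both 72 h groups, at least 6.15-fold lower. Fads2, the delta-6 desaturase, was 11.1-fold below 24 h and −0.06 (−0.47 to 0.35) from vehicle cells at 72 h. Acly, which supplies cytosolic acetyl-CoA, was 4.64-fold below 24 h and also 1.37-fold below vehicle cells at 72 h, and Acss2 was 6.43-fold below 24 h and 1.58-fold above 72 h.

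Glycolysis and hypoxia genes were lower than at 24 h in 18 of 24 cases and higher in 2 (Pfkp and Slc16a1), beside 20.8% and 43.7% of all genes. Another 4 were uncalled, and the median was −0.66, or −1.55 after poly-A scaling. Gapdh, the glycolytic enzyme whose cysteine chlorothalonil can modify, was at 15.17, 15.18 and 15.11 in vehicle cells at 24 h, 14.18, 14.32 and 14.25 in treated cells and 13.82, 13.89 and 13.70 in vehicle cells at 72 h. It was 1.87-fold below 24 h (limma adjusted p = 1.56e-08) and 1.36-fold above 72 h, and its 2 other probe sets differed by −1.05 and −0.79 from 24 h. Pfkfb4, an enzyme that sets fructose-2,6-bisphosphate, was at 8.83, 9.07 and 8.95 at 24 h and 4.26, 4.87 and 4.74 in treated cells, 20.1-fold lower. Its difference from vehicle cells at 72 h was 0.24, with an interval of −0.21 to 0.69 that reaches past 1.5-fold. Gpi and Bnip3 were 1.98-fold and 2.46-fold below 24 h, while Pfkm lay at the 24 h level, with an interval of −0.20 to 0.20, and at −1.25 on its other probe set.

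Over all 9149 genes, 83 that were at least 2-fold above the 24 h level and 71 at least 2-fold below it lay at the vehicle 72 h level, Scd, Fads2 and Lss of lipid synthesis among the latter. Gsta1, a glutathione transferase, was at 6.15, 6.25 and 6.34 at 24 h, 9.11, 8.96 and 8.75 in treated cells and 8.81, 8.91 and 8.99 in vehicle cells at 72 h. It was 6.48-fold above 24 h and 0.04 (−0.27 to 0.35) from 72 h. Serpinb1a, an inhibitor of neutrophil proteases, was 5.20-fold above 24 h and −0.16 (−0.40 to 0.07) from 72 h. Mgll, a monoglyceride lipase, was 5.31-fold above 24 h, and its other probe sets rose by 1.70 and 1.71 on the log2 scale. Ampd3, an AMP deaminase, was at background at 24 h and at least 5.67-fold higher in treated cells. Tnfrsf21, a death receptor, was 4.82-fold above 24 h and −0.13 (−0.56 to 0.29) from 72 h, and Fcrla 5.41-fold above with 0.22 (0.05 to 0.40) from 72 h.

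In the other direction Sult1c2, a sulfotransferase, was at 6.79, 6.65 and 6.46 at 24 h and at background in both groups at 72 h, at least 6.20-fold lower. Ccno and Homez were 7.14-fold and 6.86-fold below 24 h, and 0.04 (−0.33 to 0.42) and −0.04 (−0.58 to 0.50) from vehicle cells at 72 h. Gcat, of threonine breakdown, was 13.8-fold below 24 h but 1.44-fold above 72 h. Ro60, an RNA-binding autoantigen, was 11.3-fold below 24 h with widely spread vehicle 6 h arrays of 8.63, 6.78 and 9.09.

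**Figure D3:**
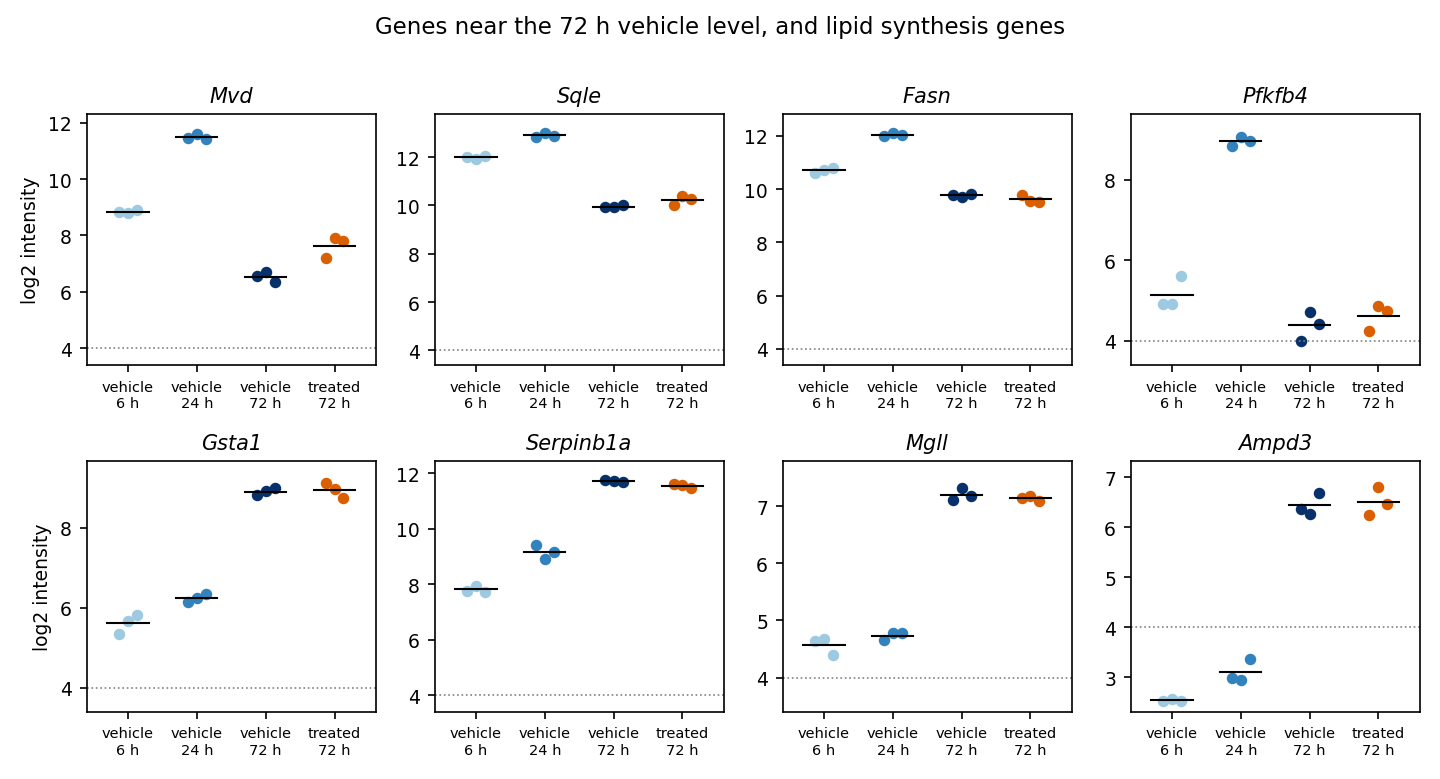
Each panel shows one gene, with log2 intensity on the vertical axis, 1 point per array, a bar at the mean of the 3 arrays of a group and a dotted line at log2 4. The treated 72 h arrays of Sqle, Fasn, Pfkfb4, Gsta1, Serpinb1a, Mgll and Ampd3 lie near the vehicle 72 h arrays, with Sqle 1.21-fold above them. Those of Mvd lie 2.14-fold above them, and both Mvd and Sqle lie far below the vehicle 24 h arrays.

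Another set of genes lay at no vehicle level. Treated cells at 72 h were called against vehicle cells at each of the 3 times, with all 3 treated arrays above all 9 vehicle arrays, for 1205 genes (13.2%), and below all of them for 523 (5.72%). For 183 genes above and 46 below, the difference was at least 2-fold from each of the vehicle groups. After poly-A scaling the counts were 48 above and 1282 below, so the greater of the 2 directions turned, and with each array centred on its median they were 893 and 803. The 8 genes named above the range and the 8 named below it kept their sign against vehicle cells at 24 h after poly-A scaling. Their size and direction fixed this in advance, since the scaling only takes 0.89 off each of these differences.

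Cd68, a lysosomal membrane glycoprotein best known from macrophages, was at 9.52, 9.61 and 9.23 in treated cells against 2.61, 2.60 and 2.55 in vehicle cells at 24 h. It was at least 43.8-fold above the 24 h background limit (limma adjusted p = 7.03e-11), and vehicle cells at 72 h were at 3.39, 4.32 and 4.02, about that limit. Itgax, an integrin alpha chain of leukocytes, was at 8.25, 8.03 and 8.17 against 3.10, 2.80 and 2.73, at least 17.7-fold higher. Mmp12, the macrophage elastase, was at 6.29, 6.95 and 6.81 and at background on all 9 vehicle arrays, at least 6.41-fold higher. Of 7 leukocyte markers on the array, Ptprc, Itgam, Csf1r, Cd4 and Lyz2 stayed at or below log2 4 on the arrays of both groups. Cd3e reached 4.09 in vehicle cells at 24 h and 3.62 in treated cells, and Cd14 was well above the limit in both. Cd14 differed by −0.16 (−0.33 to 0.01), and the summed log2 level of the 7 ranged from 25.96 to 26.84 in treated cells and from 26.25 to 27.74 in vehicle cells at 24 h. The defining leukocyte gene Ptprc was thus at background where these 3 genes were higher.

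Sprr1a, a precursor of the cornified envelope, was at 6.46, 6.98 and 7.43 in treated cells and at background on all 9 vehicle arrays, at least 7.76-fold higher. Creb5, a basic leucine zipper factor, was at 8.24, 7.83 and 8.46 against 2.49, 2.68 and 2.66 at 24 h, and its 3 other probe sets differed by between 0.79 and 3.41. Stmn4, a tubulin-binding stathmin, and Slpi, a secreted protease inhibitor, were at least 7.96-fold and 3.25-fold above the background of the vehicle cells. Ifi27l2b, of an interferon-responsive family, fell in vehicle cells with time and was at 12.53, 12.60 and 12.66 in treated cells against 7.39, 7.62 and 7.13 at 24 h, 37.2-fold higher, and 190-fold above vehicle cells at 72 h.

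Nppb, which encodes brain natriuretic peptide, was far above both later vehicle levels but not above the earliest one. It was at 8.53, 8.98 and 9.36 in treated cells and at background in vehicle cells at 24 h (3.22, 3.30 and 2.87) and 72 h, at least 31.0-fold higher than each. Vehicle cells at 6 h were at 10.05, 10.36 and 10.12, and the treated cells were 1.22 below them on the log2 scale. Ankrd1, a nuclear cofactor induced by stretch and YAP, was at 10.11, 10.42 and 10.41 against 5.50, 6.62 and 4.98 at 24 h, 24.4-fold higher, and its other probe set rose by 4.19 on the log2 scale. Both belong to the list of actin, YAP and SRF targets, of which 11 of 23 were higher, 3 (Tpm1, Flna and Ajuba) lower and 12 within 1.5-fold (43.7%, 20.8% and 47.7% of all genes were), with a median of 0.24 and −0.65 after poly-A scaling. Acta2, smooth muscle actin, lay at the 24 h level, with an interval of −0.28 to 0.28, and Cnn1, a calponin, was at least 1.81-fold above background.

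Atf3, a stress-induced member of the ATF family, was at 9.55, 9.39 and 9.59 in treated cells against 5.80, 6.76 and 5.55 at 24 h, 11.1-fold higher (limma adjusted p = 1.15e-08). Vehicle cells were at background by 72 h, and the treated cells were at least 45.5-fold above them. Hmox1, the heme oxygenase induced by NRF2, was at 8.99, 8.99 and 9.14 against 5.65, 5.56 and 5.29 at 24 h, 11.6-fold higher, and at least 32.9-fold above vehicle cells at 72 h. Against vehicle cells at 6 h, at 8.52, 8.19 and 8.45, it was higher by 0.65 on the log2 scale. Hspa1a, the inducible HSP70, was at 4.53, 6.05 and 5.76 in treated cells and at background on all 9 vehicle arrays, at least 2.73-fold higher.

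Below the vehicle range, Dhodh, the mitochondrial enzyme of pyrimidine synthesis, was at 4.35, 4.99 and 4.77 in treated cells against 7.59, 8.16 and 7.41 at 24 h and 6.72, 6.64 and 6.42 in vehicle cells at 72 h. It was 8.08-fold below 24 h (adjusted p = 2.68e-09) and 3.71-fold below 72 h. Pik3r1, the regulatory subunit of PI3-kinase, was 5.27-fold below 24 h and 3.24-fold below 72 h. Dhrs4, a retinol and carbonyl reductase, was at 4.34, 4.29 and 4.30 against 6.73, 6.91 and 6.04. Capn1, the mu-calpain protease, was 5.61-fold below 24 h with a wide spread among treated arrays (3.96, 5.68 and 5.31). C13h2orf76 and Tmem276 were 4.04-fold and 3.37-fold below 24 h, and the other probe sets of Tmem276 differed by between −2.33 and 0.30. Col14a1, a collagen of fibril surfaces, and Adamts10, a matrix protease, were 23.3-fold and 6.97-fold below 24 h. Their other probe sets differed by only −0.38 and −0.54, so the size of these differences depends on the probe set.

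**Figure D4:**
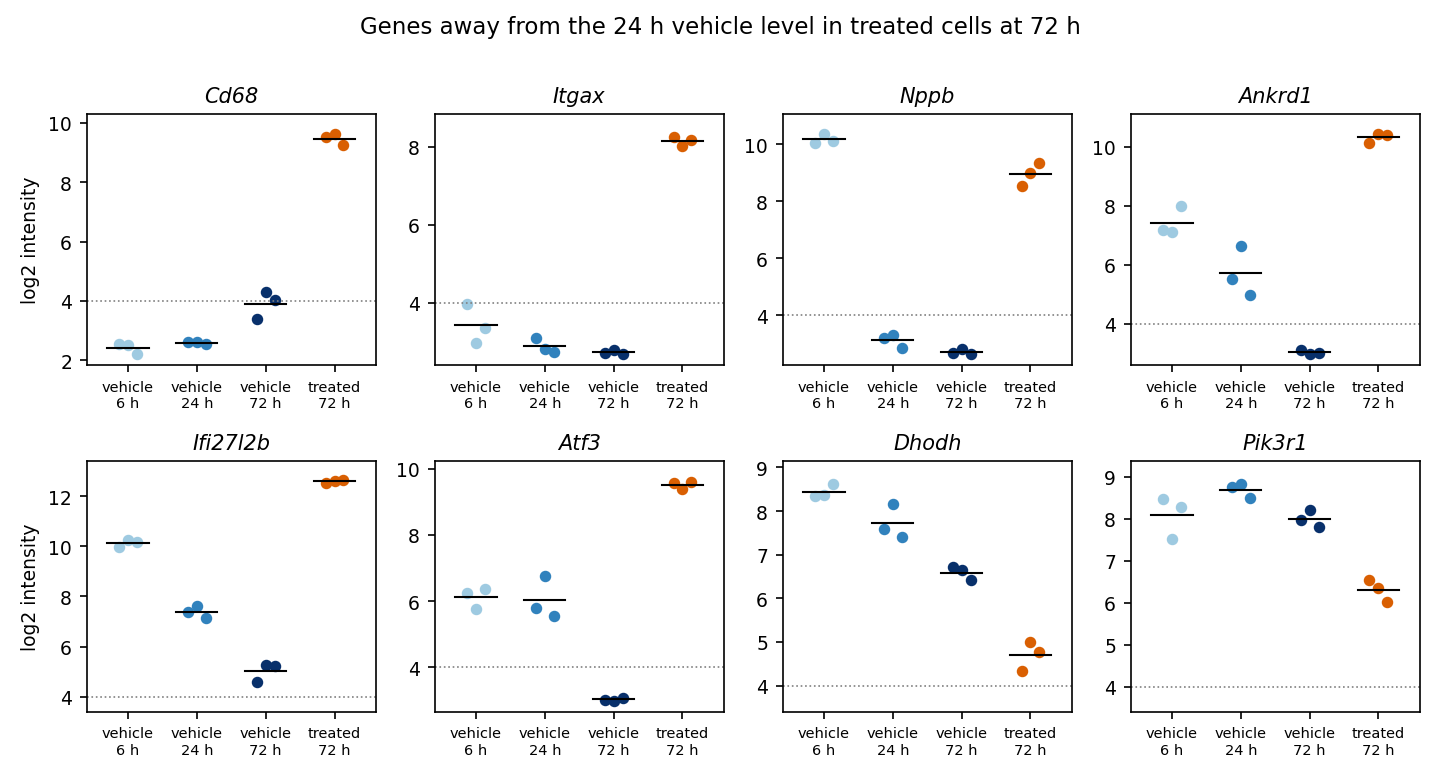
Each panel shows one gene, with log2 intensity on the vertical axis, 1 point per array, a bar at the mean of the 3 arrays of a group and a dotted line at log2 4. Treated 72 h arrays lie above all vehicle arrays for Cd68, Itgax, Ankrd1, Ifi27l2b and Atf3 and below all of them for Dhodh and Pik3r1, while those of Nppb lie between the vehicle 6 h arrays and the later ones.

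Cell division genes were mostly above their 24 h level. Of 34 mitosis genes tested 28 were higher (43.7% of all genes were), 1 (Cenpe, at −0.39) was lower and 5 did not pass the test, with a median difference of 0.62, and of −0.27 after poly-A scaling. In vehicle cells 15 of the 34 fell from 24 h to 72 h (24.3% of all genes did) and 4 rose, with a median of −0.15, and treated cells stood above vehicle cells at 72 h by a median of 0.76. Cks2, shown above, was 2.01-fold higher than at 24 h (limma adjusted p = 3.41e-08). Cdk1, the mitotic kinase, was at 12.55, 12.62 and 12.43 at 24 h and 13.38, 13.40 and 13.44 in treated cells, 1.83-fold higher. Ttk, the spindle checkpoint kinase, was 1.96-fold higher on its brighter probe set, whereas the other differed by −1.74. Pbk was 1.72-fold higher. Ccna2, Cdc20 and Mki67 did not pass the test, at 0.02 (−0.23 to 0.27), 0.15 (−0.07 to 0.36) and 0.19 (−0.02 to 0.39), and Top2a was 1.44-fold higher.

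DNA replication genes had 24 of 32 higher and 3 (Mcm7, Tk1 and Tyms) lower, beside 43.7% and 20.8% of all genes. Their median was 0.51, and −0.38 after poly-A scaling. Rpa2, of the single-strand binding complex, was at 10.17, 10.35 and 10.39 in treated cells against 8.96, 9.15 and 8.73 at 24 h, 2.56-fold higher. Orc6 and Pcna, of origin binding and of the sliding clamp, were 2.09-fold and 1.59-fold higher. Tk1, thymidine kinase, was 2.17-fold lower and lay near vehicle cells at 72 h (0.19, −0.04 to 0.43), with other probe sets at −0.66 and −0.10. Cdt1 and Lig1 lay at the 24 h level, at −0.03 (−0.17 to 0.11) and −0.05 (−0.20 to 0.11). Of the genes that hold cells in G1, Cdkn1a was above 24 h by 1.06 on the log2 scale, and it is described with the p53 targets below. Cdkn2c was 1.79-fold above 24 h after a vehicle rise of 0.85, and it was −0.01 from vehicle cells at 72 h. Cdkn1b was 1.31-fold below 24 h, and its other probe set differed by −3.81. Ccnd1 did not pass the test at −0.23 (limma adjusted p = 0.0717), and Ccne1 was 1.63-fold lower.

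The p53 targets were higher than at 24 h in 12 of 17 cases and lower in 1 (Ccng1, at −0.18), beside 43.7% and 20.8% of all genes. Their median was 0.61, and −0.28 after poly-A scaling. Aen, a nuclease of p53-dependent death, was at 8.65, 8.79 and 8.82 against 6.70, 6.93 and 5.95 at 24 h, 4.68-fold higher, with 0.56 on its other probe set. Plk2 and Phlda3 were 2.17-fold and 2.20-fold higher. Cdkn1a, the p21 inhibitor, was 2.08-fold higher at 12.50, 12.78 and 12.77 against 11.63, 11.69 and 11.56, though its other probe set differed by −0.34. Mdm2, the ligase that degrades p53, was 1.40-fold higher than at 24 h and 2.79-fold higher than at 72 h, with other probe sets between −0.47 and 0.60.

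Immediate early and AP-1 genes were higher in 18 of 29 cases and lower in 1 (Junb, at −1.15), beside 43.7% and 20.8% of all genes. Their median was 0.59, and −0.31 after poly-A scaling. Maff, a small MAF factor, was at 9.54, 9.67 and 9.62 against 7.14, 7.30 and 7.18, 5.28-fold higher (limma adjusted p = 4.12e-11). Jun was 3.53-fold higher on its brightest probe set, and its 2 others rose by 1.66 and 1.93 on the log2 scale. Fosb was at least 2.50-fold above the background of the vehicle cells. Fos itself lay at the 24 h level, at 11.15, 11.12 and 11.27 against 11.30, 11.34 and 11.29, a difference of −0.13 (−0.33 to 0.08). The members of this family thus differed in direction.

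Of 25 heat shock genes tested, 14 were higher (43.7% of all genes), 2 (Hspa4 and Hsp90ab1, at −1.30 and −0.59) lower and 13 within 1.5-fold (47.7% of all genes), with a median of 0.23, and of −0.66 after poly-A scaling. Hsph1, an HSP110 chaperone, was at 12.14, 12.34 and 12.28 against 10.61, 10.80 and 10.70 at 24 h, 2.92-fold higher. Hspb1 and Cryab, small heat shock proteins, were 2.88-fold and 1.83-fold higher, and Dnajb4, an HSP40, 1.70-fold.

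NRF2 targets had 12 of 29 higher, 9 lower and 14 within 1.5-fold, beside 43.7%, 20.8% and 47.7% of all genes, and a median of 0.19, which poly-A scaling turns to −0.71. Akr1b8, an aldo-keto reductase, was 2.80-fold above 24 h. Nqo1, the quinone reductase, was at 12.17, 12.28 and 12.09 against 12.50, 12.55 and 12.50, 1.26-fold lower than at 24 h although 1.68-fold above vehicle cells at 72 h. Pgd, of the pentose phosphate pathway, was 2.32-fold lower. Nfe2l2, which encodes NRF2 itself, differed by 0.06 (−0.05 to 0.17).

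Genes of the unfolded protein response in the endoplasmic reticulum were lower than at 24 h in 15 of 22 cases (20.8% of all genes were). Another 4 (Dnajb9, Xbp1, Atf6 and Selenos) were higher (43.7% of all genes) and 3 did not pass the test. The median was −0.40, and −1.29 after poly-A scaling. In vehicle cells 15 of the 22 also fell from 24 h to 72 h (24.3% of all genes), with a median of −0.44. Against vehicle cells at 72 h, 11 were higher in treated cells and 7 lower (37.2% and 27.0% of all genes), with a median of 0.28. Pdia4, a disulfide isomerase, was at 12.48, 12.64 and 12.45 against 13.87, 13.68 and 13.65 at 24 h and 13.43, 13.45 and 13.23 in vehicle cells at 72 h, 2.31-fold and 1.80-fold lower. Calr, the chaperone calreticulin, was 2.07-fold below 24 h and 1.30-fold below 72 h. Dnajb9, a co-chaperone, was 1.96-fold higher. Atf6 was 2.09-fold higher on its brighter probe set and differed by −0.08 on the other. Herpud1 lay at the 24 h level, with an interval of −0.19 to 0.19.

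Interferon-responsive genes were higher in 13 of 22 cases and lower in 2 (Stat2 and Ifi44), beside 43.7% and 20.8% of all genes. Their median was 0.50, and −0.40 after poly-A scaling. Psmb8, an immunoproteasome subunit, was at 7.51, 7.66 and 7.52 and at background in vehicle cells at 24 h (3.89, 3.80 and 2.80), at least 11.8-fold higher. Ifi27 and Isg20 were 4.21-fold and 3.94-fold higher. Gbp2, a guanylate-binding protein, lay at the 24 h level, at −0.05 (−0.52 to 0.43). Saa3, an acute phase protein, was 3.75-fold below 24 h and 8.27-fold below vehicle cells at 72 h.

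The aryl hydrocarbon receptor, its targets and xenobiotic metabolism genes were below the 24 h level in 8 of 9 cases (20.8% of all genes). Ephx1, the microsomal epoxide hydrolase, was higher by 3.07-fold. The list's median was −0.89, and −1.78 after poly-A scaling. In vehicle cells 7 of the 9 also fell from 24 h to 72 h (24.3% of all genes), with a median of −1.17. Against vehicle cells at 72 h, 3 of the 9 were higher in treated cells and 0 lower (37.2% and 27.0% of all genes), with a median of 0.28. Ahr was at 3.65, 4.22 and 3.27 in treated cells against 6.63, 6.96 and 6.47 at 24 h, so that treated cells lay about the background limit, and the difference from vehicle cells at 72 h did not pass the test (−0.59, −1.47 to 0.29). Abcg2, an efflux transporter, was 2.39-fold below 24 h but 5.13-fold above 72 h. Tfrc, the transferrin receptor, was at 10.72, 10.84 and 10.98 against 13.58, 13.64 and 13.48, 6.58-fold below 24 h and 1.58-fold below 72 h.

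Oxidative phosphorylation genes lay mostly within the interval and ribosome biogenesis genes did not. Of 34 oxidative phosphorylation genes 29 lay within 1.5-fold of the 24 h level (47.7% of all genes did). Of the 34, 21 were called higher and 1 (Atp5f1a) lower, beside 43.7% and 20.8% of all genes. Their median was 0.23, or −0.66 after poly-A scaling. Ribosome biogenesis genes were higher in 20 of 29 cases (43.7% of all genes) and did not pass the test in 9. Of these 29 genes, 12 lay within 1.5-fold, and the median was 0.41, or −0.49 after poly-A scaling. Polr1b, a subunit of RNA polymerase I, was at 7.44, 7.40 and 7.53 against 5.49, 5.72 and 5.23 at 24 h, 3.94-fold higher, and Nop58, a core protein of small nucleolar particles, was 1.89-fold higher. Fbl, its methyltransferase partner, lay at the 24 h level, at −0.03 (−0.20 to 0.14). The injury markers Cd44 and Spp1 differed in direction, with Cd44 2.82-fold above 24 h and Spp1 1.28-fold below it.

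**Figure D5:**
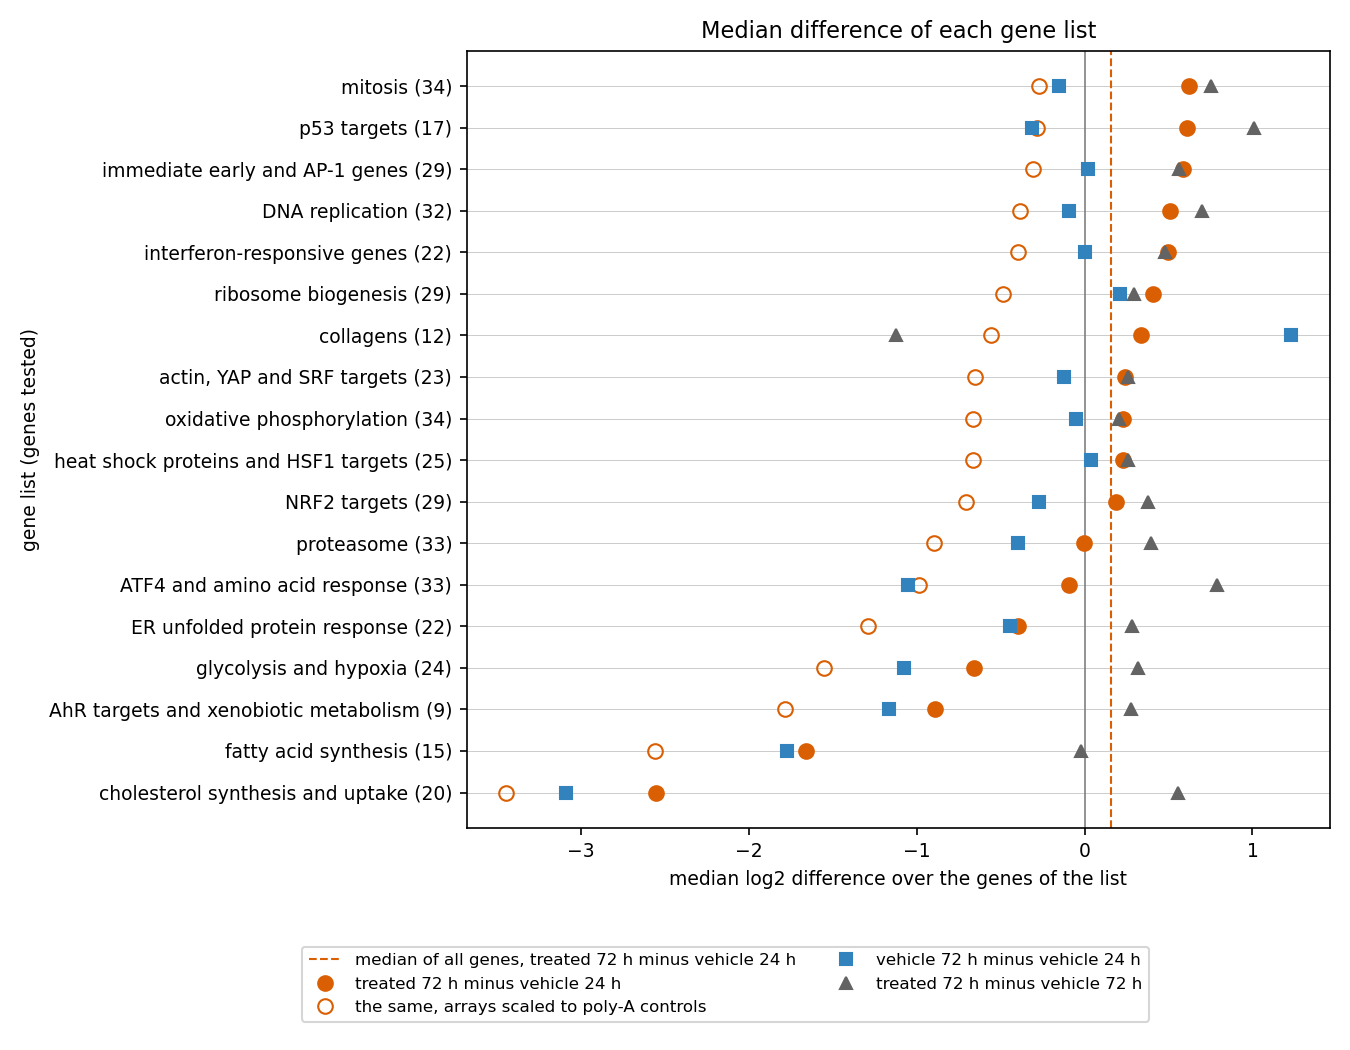
Points give the median log2 difference over the tested genes of each list for 3 comparisons, with open circles for the first after scaling to the poly-A controls and a dashed line at the median of all genes (0.16). Cholesterol (−2.55) and fatty acid synthesis (−1.66) lie far below 0 in treated cells at 72 h against vehicle cells at 24 h, proteasome (−0.01) and ATF4 genes (−0.09) lie near 0, and the open circles of the lists above 0 all lie below it.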

How the data were processed

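RNA of NRK-52E cells was measured on 18 Affymetrix Rat 230 2.0 arrays, 3 for each of 6 groups (chlorothalonil or DMSO for 6, 24 or 72 h). The authors' deposited values are log2 intensities of 31099 probe sets. The submitters' processing notes name GCRMA as the method, and its version is not given in the sources used here. They were used without further normalization. Of the probe sets, 20832 have 1 gene symbol, 436 several and 9831 none in the platform annotation. Those above log2 4 on at least 3 arrays were kept (12693), and each gene took its brightest probe set, which left 9149 genes, of which 2600 had several sets. One mean per group was fitted over all 18 arrays with limma 3.58.1 in R 4.3.3, with 12 residual degrees of freedom, Benjamini-Hochberg adjustment over all genes and a threshold of 0.05. The script was first tested on data made with known changes. Where all 3 arrays of a group were at or below log2 4, a fold is printed as a lower bound against that limit. The number of arrays limits the precision.

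Genes were named by rules on 34 gene lists, on the size of the difference and on position relative to vehicle cells: the 10 highest and 10 lowest, the 8 per direction with the greatest vehicle change at the 24 h level, 6 per direction at the 72 h level, 8 per direction beyond the vehicle range, 4 per list by p and 2 per list nearest to the 24 h level, plus 13 genes chosen by name. Trib3, Chac1, Mthfd2, Cd14, and members named because they were the few exceptions of a list, were chosen after their values were seen. The members and lists were chosen with earlier results of these data known. Promoters are from RefSeq (GRCr8), matched by symbol. Alternatives covered scaling, filter, arrays in the fit, probe set, moderation, likeness width, a replicate block and leaving out each array. Chlorothalonil arrays at 6 h and 24 h served the spread in the fit, and they also counted in the filter on low values and in the choice of the brightest probe set.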

Additional observations from a re-analysis of the deposited data

Results flagged for a closer look

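The spiked poly-A controls, used here only for an alternative scaling, were brighter by 0.89 on the log2 scale in the treated 72 h arrays than in the vehicle 24 h arrays.

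Of the probe sets without 1 gene symbol, 3946 passed the filter on low values, and 2162 of them (54.8%) differed between the groups by limma's test with a Benjamini-Hochberg adjusted p under 0.05. Of these, 347 were at least 2-fold higher and 418 at least 2-fold lower in treated cells, and the differences reached from −5.32 to 4.90 on the log2 scale. Groups of 3 arrays were not checked for outlying arrays.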

How the results depend on the processing

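Under poly-A scaling 215 genes were higher and 4663 lower in treated cells at 72 h than in vehicle cells at 24 h, and 0 lay within 1.5-fold, since the scaling lowers every difference and adds the spread of the controls to it. It left 3776 calls against vehicle cells at 72 h, 1393 for vehicle 72 h against 24 h, 0 genes at either vehicle level in either direction, 48 above and 1282 below the vehicle range, 81 higher and 648 lower among the time genes that rose, 53 and 694 among those that fell, and 0 within 1.5-fold in both. It reversed Asns (−0.65), Cdkn3 (−0.70), Hspb8 (−0.66), Mdm2 (−0.41), Top2a (−0.36), Mthfd2 (−0.34), Pcna (−0.22), Col3a1 (−0.21), Col1a1 (−0.14), Timp1 (−0.14), Dnajb4 (−0.13), Pbk (−0.11), Cdkn2c (−0.053), Cdk1 (−0.021) and Cryab (−0.024). The same scaling without the dimmest vehicle 24 h array, chosen after seeing the data, gave 3341 calls, 640 of them higher, 1111 genes within 1.5-fold, 3062 vehicle calls between 24 h and 72 h, 8 late falling genes at the 24 h level, 23 genes above 24 h at the 72 h level, 195 risers and 142 fallers higher, 168 and 170 within, and 127 above and 1592 below the vehicle range. It reversed Asns (−0.19), Cdkn3 (−0.30) and Hspb8 (−0.32). Median centring lowers every difference of treated cells at 72 h from vehicle cells at 24 h by the same amount. It gave 48 genes above 24 h at the 72 h level, 400 risers lower and 803 genes below the range. It ended the calls of Asns (0.079), Cdkn3 (0.027) and Hspb8 (0.066), and 11 other named genes gained one. The mean of probe sets reversed Ttk (−0.38), whose sets disagree. It also ended the calls of Cdkn1a (0.36), Mdm2 (0.21), Atf6 (0.49) and Hspb8 (0.03), while Cdc20 (0.47), Col5a2 (−0.17) and Pfkm (−0.63) gained one. Without the filter 9216 genes lay within 1.5-fold, since dim genes then enter. Likeness within 2-fold held for 7002 genes, 221 and 181 at the 24 h level (rising and falling in vehicle), 241 and 200 at the 72 h level (above and below 24 h), 988 risers and 841 fallers. With a width of 25% upward and the matching step downward these were 1579, 11 and 23, 12 and 13, 146 and 133. Time genes taken from 72 h against 24 h gave 377 higher, 30 lower and 78 within for risers, and 62 higher and 77 within for fallers.

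With each array left out in turn, calls ranged from 5304 to 5975 and genes within 1.5-fold from 4031 to 4440. Asns lost its call without treated array 2 (0.22, adjusted p = 0.0511) or vehicle 24 h array 3 (0.19, adjusted p = 0.0665). Cdkn3 lost it without any one array of the 2 groups other than treated array 1, with adjusted p between 0.0518 and 0.134. Hspb8 lost it without treated array 2 or 3 or vehicle 24 h array 1 or 3, with adjusted p between 0.0536 and 0.124. Ltbp4 gained one without treated array 1 (0.36, adjusted p = 0.00182) or vehicle 6 h array 2 (adjusted p = 0.0390), Mki67 without vehicle 24 h array 2 (0.29, adjusted p = 0.0145) and Ccnd1 without vehicle 72 h array 3 (adjusted p = 0.0321). All p here are limma's with Benjamini-Hochberg adjustment. With the replicate number as a block 5827 genes were called, 3950 higher and 1877 lower, and 4343 lay within 1.5-fold. Deviations of same-numbered arrays of the 2 groups correlated at −0.23, 0.13 and −0.11, and those of arrays with unlike numbers at between −0.23 and 0.26. These values show no pairing by number, and with 3 arrays per group they cannot exclude one.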

Other observations

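Other gene groups were compared in treated cells at 72 h against vehicle cells at 24 h, where 43.7% of all genes were higher, 20.8% lower and 47.7% within 1.5-fold. Of 19 genes of fatty acid oxidation and PPAR targets, 11 were higher, 3 lower and 9 within 1.5-fold, with a median difference of 0.30 on the deposited scale and −0.59 after poly-A scaling. Pdk4, the kinase that shuts off pyruvate dehydrogenase, was at 10.18, 10.14 and 10.05 in treated cells against 7.49, 7.51 and 7.40 at 24 h, 6.31-fold higher. Angptl4, an inhibitor of lipoprotein lipase, was at background at 24 h, at 5.48, 4.83 and 4.73 in treated cells and at 5.91, 5.84 and 6.17 in vehicle cells at 72 h. The treated arrays of both genes lay above all 24 h arrays, and those of Angptl4 also lay below all vehicle 72 h arrays.

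Of 23 lysosome and autophagy genes 14 were higher and 4 lower, with a median of 0.37 and −0.53 after poly-A scaling. Gabarapl1, an ATG8 protein of autophagosomes, was 2.65-fold above 24 h. All 18 cytosolic ribosomal protein genes tested lay within 1.5-fold although 14 were called higher, with a median of 0.21 and −0.69 after poly-A scaling. Kidney injury markers had 8 of 11 higher and 3 lower, with a median of 0.61 and −0.28 after poly-A scaling, and Cst3, the protease inhibitor cystatin C, was 2.12-fold above 24 h.

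Proximal tubule genes had 4 of 7 lower, with a median of −0.55 and −1.44 after poly-A scaling. Epithelial junction and keratin genes had 2 of 11 higher and 4 lower, with a median of −0.17 and −1.06 after poly-A scaling, and Cdh2, the cadherin of proximal tubule cells, was 2.58-fold below 24 h. Apoptosis regulators had 9 of 19 higher and 5 lower, near the shares of all genes, with a median of 0.21 and −0.69 after poly-A scaling. Metallothionein and metal transport genes had 4 of 12 higher and 6 lower, with a median of −0.30 and −1.19 after poly-A scaling. Of 14 chemokine and inflammatory genes 6 were higher and 2 lower, with a median of 0.16 and −0.74 after poly-A scaling. Of 22 matrix proteins other than collagens 11 were higher and 8 lower, with a median of 0.18 and −0.72 after poly-A scaling. Of 15 cyclins and inhibitors of G1 6 were higher and 3 lower, with a median of 0.11 and −0.78 after poly-A scaling.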
